A study of Mus musculus with 48 samples.

Results

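The haemoglobin genes described here are 6 genes that make the protein chains of mouse haemoglobin, found by gene symbol among the 22173 genes counted in gonadal somatic cells (GSCs). They comprise the adult alpha-like chain Hba-a1, the adult beta-like chains Hbb-bs and Hbb-bt, the embryonic alpha-like chain Hba-x (zeta globin) and the embryonic beta-like chains Hbb-y (epsilon-y globin) and Hbb-bh1 (beta-h1 globin). All 6 were counted at the 4 stages and passed the filter on low counts. Of the 13682 genes with an FPKM value (fragments scaled to exon length and library size), 2 were members, Hba-a1 and Hbb-bs, and all 6 were present in the single-cell table.

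The stages were E12.5, E13.5 and E16.5 female gonads and the ovary 6 weeks after birth (P6w), with 2 bulk RNA-seq libraries each, all from C57BL/6 mice. The authors' methods describe E12.5 GSCs as what remained after germ cells carrying SSEA1 were taken out on magnetic beads. Those methods do not say whether the E16.5 and P6w cells were prepared in the same way. A step that removes red blood cells is not given in the sources used here. The FPKM values covered 3 libraries of cells taken from E12.5 female gonads (E12.5_GC) and C57BL/6 embryonic stem cells (ESCs) under induction to gonadal somatic cell-like cells. The inducing agents were Vc and AM580, together called V580. The induced cells were collected on days 4, 6, 8 and 10 (3 libraries each), and after 24 h and 48 h with Vc, AM580, V580 or neither (Con; 2 libraries each). One 10x sample held V580 day 6 cells. Nothing in the labels says that libraries of a group came from separate animals or cultures, so that the p values measure only the spread between these libraries.

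Haemoglobin carries oxygen in red blood cells as a tetramer of alpha-like and beta-like chains, each holding a haem. In the mouse, primitive red cells formed in the yolk sac make mainly the embryonic chains, and definitive red cells formed in the fetal liver and later the bone marrow make the adult chains. The change from the former to the latter in the circulation of the embryo is known as haemoglobin switching, and the genes of each family lie side by side, the embryonic ones first.

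In the GENCODE vM21 annotation of GRCm38, Hba-x (chr11:32276400-32278116) and Hba-a1 (chr11:32283511-32284465) lie on the plus strand. Hbb-y (chr7:103851749-103853216), Hbb-bh1 (chr7:103841637-103843164), Hbb-bs (chr7:103826534-103828096) and Hbb-bt (chr7:103812524-103813996) follow each other in that order along the minus strand. All are protein-coding genes. The first 90 coding bases of the chains, each read within 1 exon of that genome, are shown because they show how far reads can tell embryonic from adult chains. Capitals mark the bases of Hbb-y and Hbb-bh1 that differ from Hbb-bs, and those of Hba-x that differ from Hba-a1, position by position.
Hbb-bs: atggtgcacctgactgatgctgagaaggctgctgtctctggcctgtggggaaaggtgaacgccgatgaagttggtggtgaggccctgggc
Hbb-y: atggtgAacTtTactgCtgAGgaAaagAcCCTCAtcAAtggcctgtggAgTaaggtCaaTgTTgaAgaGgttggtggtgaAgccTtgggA
Hbb-bh1: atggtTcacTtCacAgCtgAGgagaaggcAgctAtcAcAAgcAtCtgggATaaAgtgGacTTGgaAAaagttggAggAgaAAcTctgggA
Hba-a1: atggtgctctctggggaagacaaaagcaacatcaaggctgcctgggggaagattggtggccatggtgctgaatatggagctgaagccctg
Hba-x: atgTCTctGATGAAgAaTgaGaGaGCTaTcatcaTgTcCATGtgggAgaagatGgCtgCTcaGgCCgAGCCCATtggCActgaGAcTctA

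These stretches are at chr7:103827786-103827875 (Hbb-bs), chr7:103853063-103853152 (Hbb-y) and chr7:103843021-103843110 (Hbb-bh1), minus strand, and at chr11:32283707-32283796 (Hba-a1) and chr11:32276664-32276753 (Hba-x), plus strand. Of the 90 bases, 26 differed in Hbb-y, 29 in Hbb-bh1 and 44 in Hba-x. Over the whole coding sequence, Hbb-y was 74.3% and Hbb-bh1 74.1% identical to Hbb-bs, and Hba-x was 62.0% identical to Hba-a1. No 50-base stretch of the Hbb-y transcript occurred in that of Hbb-bs or Hbb-bh1, nor one of Hba-x in that of Hba-a1. The adult copies were nearly alike. Hbb-bs and Hbb-bt differed at 1 of 444 coding bases, and Hba-a1 and Hba-a2, the second adult alpha gene, at 1 of 429. Hbb-bt shared 58.3% of its 50-base stretches with Hbb-bs, and Hbb-bs 65.8% with Hbb-bt. Hba-a1 shared 67.5% with Hba-a2, and Hba-a2 86.9% with Hba-a1. How counts were split within Hbb-bs and Hbb-bt, and within Hba-a1 and Hba-a2, is therefore uncertain, whereas the split between embryonic and adult chains does not rest on shared stretches. The counts under the older symbol Hbb-b1 were identical to those of Hbb-bs and are the same values.

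The 150 bases before the RefSeq start (GRCm38.p6) are shown for an embryonic and an adult chain of each family, because these chains went different ways over the stages. Capitals mark 4 motifs known from globin promoters, searched on both strands: the CCAAT box, the CACCC box, the letters GATAA that GATA factors bind, and the letters TATAA of a TATA box.
Hbb-y, chr7:103853208-103853357, minus strand: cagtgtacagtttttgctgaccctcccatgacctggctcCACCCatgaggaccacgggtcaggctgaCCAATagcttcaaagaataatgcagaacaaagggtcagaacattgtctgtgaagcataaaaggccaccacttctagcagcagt
Hbb-bs, chr7:103827929-103828078, minus strand: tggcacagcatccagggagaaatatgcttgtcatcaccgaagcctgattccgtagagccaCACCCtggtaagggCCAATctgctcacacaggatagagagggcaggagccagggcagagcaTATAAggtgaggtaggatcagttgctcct
Hba-x, chr11:32276450-32276599, plus strand: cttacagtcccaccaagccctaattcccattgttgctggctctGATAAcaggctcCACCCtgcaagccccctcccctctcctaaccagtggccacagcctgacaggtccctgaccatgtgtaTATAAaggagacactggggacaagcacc
Hba-a1, chr11:32283522-32283671, plus strand: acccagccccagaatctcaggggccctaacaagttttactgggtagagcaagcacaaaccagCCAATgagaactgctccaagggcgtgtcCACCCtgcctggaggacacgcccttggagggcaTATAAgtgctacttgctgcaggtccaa

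All 4 windows held CACCC, which 37.4% of 32851 RefSeq promoters of the same length held. CCAAT was in the windows of Hbb-y, Hbb-bs and Hba-a1 (24.5% of all), TATAA in those of Hbb-bs, Hba-x and Hba-a1 (14.2%), and GATAA in that of Hba-x (13.3%). The window of Hbb-bt, not shown, held 3 CCAAT (2 of them on the other strand), 3 CACCC and 1 TATAA. Hbb-bh1 had no entry. A match here describes letters only.

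The 8 stage libraries held 12694769 to 22259044 counts, and the 2 libraries of a stage differed by more than sampling noise (chi-square per degree of freedom of 6.02 to 37.9, the highest at E16.5). The labels put every E12.5 and E13.5 library on lane 5 together with E16.5 replicate 1, and E16.5 replicate 2 on lane 1 together with P6w. In what follows, CPM are counts scaled to library size with TMM factors, log2 values are differences between stages with their standard error (SE), and adjusted p values are Benjamini-Hochberg values of edgeR's quasi-likelihood test over 16398 genes, called below 0.05. The median log2 change of all genes lay between -0.04 and 0.06 in the 5 comparisons of stages. Whether fewer red cells or less RNA per cell lies behind a lower level cannot be told apart in bulk samples.

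The embryonic chains were abundant at E12.5 and E13.5, low at E16.5 and all but absent at P6w, whereas the adult chains rose between E12.5 and E13.5, stayed high at E16.5 and were far lower at P6w. The 6 members made up 1.69% and 1.55% of all counts at E12.5, 2.94% and 2.70% in the E13.5 pair, 1.46% and 0.960% at E16.5, and 0.0205% and 0.0230% at P6w. Both E13.5 libraries thus lay highest and both P6w libraries lowest.

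**Figure D1:**
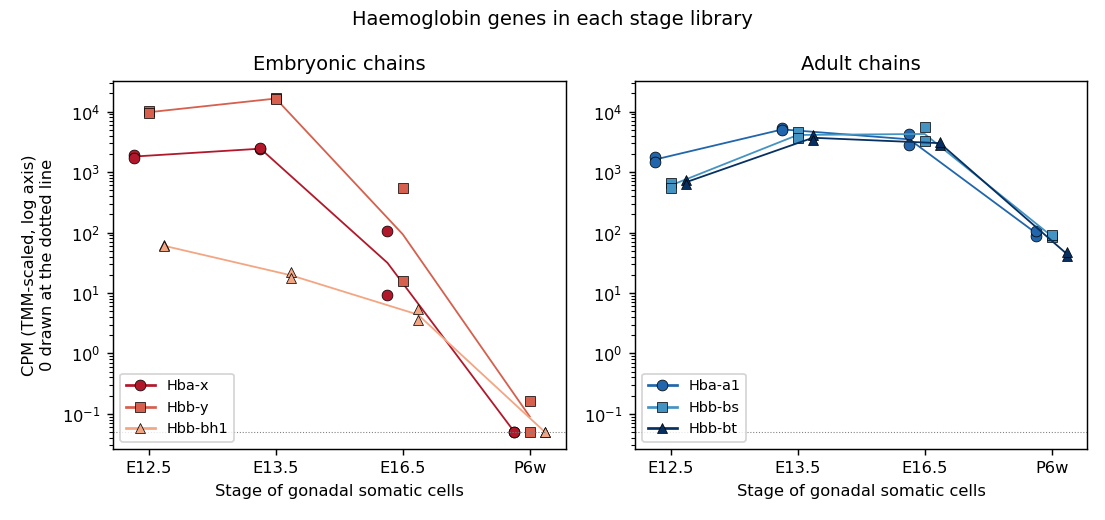
CPM (log axis) of the 6 haemoglobin genes by stage, with the embryonic chains on the left and the adult chains on the right; each point is a library, lines join the geometric means, and values of 0 are drawn at the dotted line. The embryonic chains drop at E16.5, where the libraries of Hbb-y lie at 552 and 15.8 CPM, while the adult chains stay at 2823 CPM or above there and lie between 40.6 and 106 CPM at P6w.

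Hbb-y, the epsilon-y chain, was at 10179 and 9352 CPM at E12.5, 16941 and 15950 in the E13.5 libraries, 552 and 15.8 at E16.5, and 0.163 and 0 at P6w. The E13.5 libraries were above the E12.5 libraries, but the log2 difference of 0.75 (SE 0.780) did not pass the test of edgeR (adjusted p = 0.454). The call depended on the E16.5 libraries, which enter the estimate of the spread: with both left out of the model, an alternative chosen after seeing the data, the difference of 0.76 was called, and with only the first of them left out that of 0.75 was called too. With an offset for gene length in each library the direction was the opposite, -0.22, and was not called.

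Hba-x, the embryonic alpha-like chain, was at 1899 and 1712 CPM at E12.5 and 2400 and 2472 at E13.5. At E16.5 it was at 105 and 9.42 CPM, and it had no count in either P6w library. The E13.5 difference of 0.43 (SE 0.565) was not called by edgeR (adjusted p = 0.558), was called without the E16.5 libraries (0.44) or without the first of them (0.43), and was -0.42, not called, with the gene-length offset.

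Hbb-bh1, an embryonic beta-like chain made early in the yolk sac, went down at each step. Its levels were 61.9 and 58.9 CPM at E12.5, 22.1 and 17.4 in the E13.5 pair, 5.41 and 3.55 at E16.5, and 0 in both P6w libraries. No library of a stage overlapped with one of another stage. For any 2 stages, such a separation alone cannot give an exact two-sided permutation p below 0.33. The log2 change to E13.5 was -1.61 (SE 0.195; adjusted p = 2.40e-05, edgeR); with the gene-length offset it was -2.59, also called. Between E13.5 and E16.5 its log2 change was -2.12 (SE 0.218; adjusted p = 2.99e-06, edgeR).

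Hba-a1, the adult alpha chain, was at 1756 and 1486 CPM at E12.5, 5269 and 4886 in the E13.5 libraries, 4269 and 2823 at E16.5, and 88.3 and 106 at P6w. Hbb-bs, an adult beta chain, was at 654 and 552 CPM at E12.5, 4584 and 3677 in the E13.5 pair, 5551 and 3275 at E16.5, and 85.0 and 89.6 at P6w. Hbb-bt, the other adult beta chain, was at 725 and 633, 4025 and 3383, 2850 and 3168, and 40.6 and 47.9 CPM at the 4 stages in the same order. For all 3 genes the E12.5 libraries lay below every E13.5 and E16.5 library and above every P6w library. As for Hbb-bh1, separation of 2 libraries from 2 cannot by itself give an exact two-sided permutation p below 0.33.

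From E12.5 to E13.5 the adult chains rose, Hbb-bs by 6.85-fold (log2 2.78, SE 0.205, edgeR adjusted p = 5.22e-07), Hbb-bt by 5.45-fold (2.45, SE 0.140, 8.04e-08) and Hba-a1 by 3.13-fold (1.65, SE 0.173, 7.49e-06). With the gene-length offset the log2 rises were smaller, 1.86 for Hbb-bs, 1.51 for Hbb-bt and 0.75 for Hba-a1, each still called. Of the 6 members, 3 were called higher and 1 lower at E13.5, where 45.9% of all genes tested were called (23.8% higher and 22.1% lower). With the E16.5 libraries left out of the model, all 6 were called.

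Between E12.5 and E16.5 all 6 members were called, the 3 adult chains higher and the 3 embryonic chains lower, where 37.6% of all genes were called (20.5% higher and 17.1% lower). The embryonic log2 changes were -5.10 for Hbb-y (SE 0.925, edgeR adjusted p = 0.000556), -4.97 for Hba-x (SE 0.671, 5.83e-05) and -3.73 for Hbb-bh1 (SE 0.221, 2.79e-08). The adult ones were 2.87 for Hbb-bs (SE 0.206, 7.97e-08), 2.15 for Hbb-bt (SE 0.139, 3.11e-08) and 1.13 for Hba-a1 (SE 0.171, 0.000118). The sizes for Hbb-y and Hba-x rested on the E16.5 libraries, since they were -9.27 and -7.58 without the first of them and -4.15 and -4.11 without the second, all called.

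From E13.5 to E16.5 the embryonic chains fell, while the adult chains stayed within 0.52 of their E13.5 level on the log2 scale. Hbb-y changed by -5.85 (SE 0.958, edgeR adjusted p = 0.000123) and Hba-x by -5.40 (SE 0.684, 1.76e-05); without the first E16.5 library these were -10.02 and -8.01. Of the adult chains, Hba-a1 was called lower (-0.52, SE 0.169, 0.0175), and Hbb-bs (0.10, SE 0.192, 0.698) and Hbb-bt (-0.30, SE 0.133, 0.0694) were not called. So 4 of 6 members were called, where 54.1% of all genes were (28.7% higher and 25.4% lower). The adult values at this step turned with the setting: with the gene-length offset Hba-a1 was at 0.29 (not called), Hbb-bt at 0.51 and Hbb-bs at 0.91 (both called). Without the second E16.5 library Hbb-bs was at 0.43 (called), Hbb-bt at -0.37 (called) and Hba-a1 at -0.24 (not called), and without the first one Hbb-bs was at -0.33 (called). The call of Hba-a1 was also lost without the first E13.5 library (-0.47).

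At P6w all 6 members were called lower than at E12.5 (52.9% of all genes called, 25.4% higher and 27.5% lower) and than at E16.5 (56.1% called, 26.3% higher and 29.8% lower). Against E12.5, Hba-a1 was 16.7-fold lower (log2 -4.06, SE 0.192, edgeR adjusted p = 1.64e-10), Hbb-bt 15.3-fold (-3.94, SE 0.153, 1.76e-11) and Hbb-bs 6.91-fold (-2.79, SE 0.208, 2.58e-08). Against E16.5 the log2 changes were -5.19 for Hba-a1, -5.66 for Hbb-bs and -6.09 for Hbb-bt. The embryonic chains are given as bounds from the counts, since fitted values of genes at 0 depend on the prior count. With a floor of 3 counts over both P6w libraries, Hba-x was at least 14627-fold and Hbb-bh1 at least 489-fold lower at P6w than at E12.5. Hbb-y, with 2 counts at P6w, had a ratio of 118648 (95% counting interval 32845 to 979721). Counting intervals here cover counting error only, since reads without molecular identifiers are not independent molecules. The adult chains kept 1041 to 1273 counts (Hba-a1 and Hbb-bs) and 497 and 576 counts (Hbb-bt) in the P6w libraries.

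A share within a library, unlike a level, does not scale with how many red cells were captured. Embryonic chains made up 79.5% and 80.6% of the members' counts at E12.5, 58.3% and 60.7% in the E13.5 libraries, 4.97% and 0.310% at E16.5, and 0.0763% and 0% at P6w. The stages did not overlap. Exact 95% intervals ran from 79.3% to 79.6% in the first E12.5 library, from 4.89% to 5.04% and from 0.283% to 0.339% at E16.5, and up to 0.275% at P6w. With 2 libraries against 2, the smallest p that an exact two-sided permutation test can give is 0.33, so these shares were not tested. Counted per kilobase of exon the shares were 81.8% and 82.9% at E12.5 and 61.8% and 64.1% in the E13.5 pair, and with Hba-a2 among the adult chains 77.7% and 78.2%, and 55.7% and 57.4%.

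**Figure D2:**
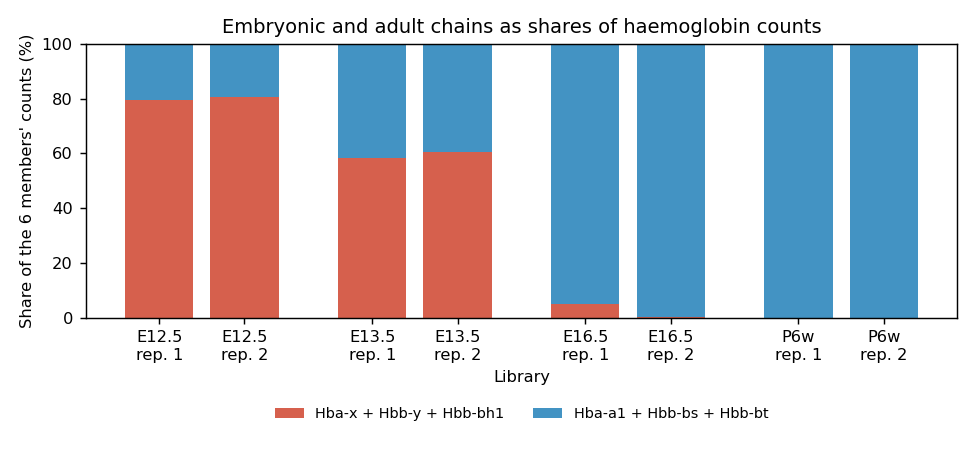
Shares of embryonic (red) and adult (blue) chains in the summed counts of the 6 genes, in percent, with a bar for each of the 8 stage libraries. The embryonic part goes down from 79.5% and 80.6% at E12.5 to 4.97% and 0.310% at E16.5.

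The 2 families started from different shares. Hba-x made up 52.0% and 53.5% of Hba-x and Hba-a1 counts at E12.5, 31.3% and 33.6% in the E13.5 libraries, and 2.40% and 0.333% at E16.5. Hbb-y and Hbb-bh1 made up 88.1% and 88.8% of the beta-like counts at E12.5, 66.3% and 69.3% in the E13.5 pair, and 6.22% and 0.3001% at E16.5. The beta-like share was thus above the alpha-like share in each E12.5 and E13.5 library, and with Hba-a2 added the alpha-like share was lower still (47.5% and 47.3% at E12.5).

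Hbb-bh1 was a small part of the embryonic beta-like counts, 0.604% and 0.626% at E12.5 and 0.130% and 0.109% at E13.5. At E16.5 it made up 0.970% in the first and 18.3% in the second library, where few Hbb-y counts were left. Among the adult beta-like chains, the ratio of Hbb-bs to Hbb-bt was 0.902 and 0.872 at E12.5, 1.14 and 1.09 in the E13.5 libraries, 1.95 and 1.03 at E16.5, and 2.09 and 1.87 at P6w, with the doubt over near-identical copies given above. Summed per kilobase of exon, the beta-like members were set against the alpha-like chains Hba-x, Hba-a1 and Hba-a2, the last of which is not a member. The ratios were 3.84 and 3.84 at E12.5, 3.40 and 3.10 in the E13.5 pair, 1.62 and 1.84 at E16.5, and 1.10 and 1.03 at P6w.

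The E16.5 libraries disagreed on the embryonic chains. The first held 12758 counts of Hbb-y, 2424 of Hba-x and 125 of Hbb-bh1, the second 259, 154 and 58. In CPM the first was 34.8 times the second for Hbb-y, 11.1 times for Hba-x and 1.52 times for Hbb-bh1, against 1.51 for Hba-a1, 1.70 for Hbb-bs and 0.899 for Hbb-bt. Named genes of red cells outside the globins were closer: Alas2, the red cell enzyme that starts haem synthesis, was at 313 and 364 CPM, and Hemgn, a nuclear protein of red cell precursors, at 185 and 182. Among the 11522 genes with a mean of at least 5 CPM at E16.5, 3 were more than 10-fold higher in the first library and 0 more than 10-fold lower (0.1 CPM added). Hbb-y ranked 1 and Hba-x 3 of these; the other gene was Trpv2, named after its value was seen.

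The first E16.5 library shared its lane with the E12.5 and E13.5 libraries, and the second did not. Its Hbb-y count was 1.25% of the Hbb-y counts summed over the E12.5 and E13.5 libraries, its Hba-x count 1.46% and its Hbb-bh1 count 3.82%. For liver genes, which lay far higher at E13.5 than at the other embryonic stages, the same figure was 2.92% for Apoa1, 2.77% for Apoa2, 1.58% for Alb, 0.625% for Ahsg (2 counts of 320) and 0.114% for Serpina6 (1 count of 875). The second E16.5 library, on another lane, was close to the first for Apoa1 (1.35 against 1.73 CPM) and Apoa2 (0.551 against 0.606). It was lower for Alb (0.245 against 1.17 CPM) and at 0 for Ahsg and Serpina6. The part of the lane in the difference was not tested. With either E16.5 library left out, each embryonic chain was called lower at E16.5 than at E12.5.

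Lists of other red cell genes were counted in the same comparisons, in which 45.9% of all genes were called at E13.5 against E12.5 (23.8% higher and 22.1% lower), 37.6% at E16.5 (20.5% and 17.1%) and 52.9% at P6w (25.4% and 27.5%). Of 12 erythroid regulators tested, 5 were called higher and 1 lower at E13.5 against E12.5 (median log2 0.72), 11 higher and 0 lower at E16.5 (1.73), and 2 higher and 10 lower at P6w (-2.23). The medians of all genes in these comparisons were 0.03, -0.01 and -0.04. Klf1, a transcription factor that acts on adult beta globin genes, was at 25.7 and 27.95 CPM at E12.5, 156 and 164 in the E13.5 libraries, 130 and 168 at E16.5, and 1.80 and 2.00 at P6w. Gata1, the factor that directs red cell formation, was at 8.24 and 9.88, 40.6 and 37.8, 49.1 and 54.8, and 5.47 and 5.49 CPM. Both were called lower at P6w than at E12.5, as 27.5% of all genes were.

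The regulators known to silence embryonic globin genes went different ways. Bcl11a was at 8.80 and 8.45 CPM at E12.5, 6.91 and 5.30 in the E13.5 pair, 24.97 and 13.2 at E16.5, and 38.1 and 29.8 at P6w. Its log2 change against E12.5 was -0.49 at E13.5 (edgeR adjusted p = 0.153, not called), 1.16 at E16.5 (0.00261) and 1.98 at P6w (1.36e-05). Sox6, another such factor, was lower at E13.5 (-1.54) and P6w (-4.57), and Zbtb7a was higher at E16.5 (2.16, with libraries at 120 and 132 CPM against 26.9 and 29.4 at E12.5) and at P6w (1.26). These genes are also used by cells other than red cells, and which cells they came from was not tested.

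Of 13 genes of haem synthesis and iron uptake, 10 were called higher and 1 lower at E13.5, where 45.9% of all genes were called (median log2 0.74), 12 higher and 0 lower at E16.5 against 37.6% of all genes (0.92), and 2 higher and 5 lower at P6w against 52.9% (-0.20). Alas2 was at 93.5 and 102 CPM at E12.5, 269 and 286 in the E13.5 libraries, 313 and 364 at E16.5, and 19.8 and 18.1 at P6w. It rose at E13.5 (log2 1.51, SE 0.122, edgeR adjusted p = 1.16e-06) and at E16.5 (1.79, SE 0.123, 5.22e-08) against E12.5 and fell at P6w (-2.37, SE 0.134, 1.20e-09). Tfrc, the transferrin receptor, was the gene lower at E13.5 (-0.62). Slc25a38 (0.61) and Ppox (0.47) were those higher at P6w.

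Of 18 red cell membrane and cytosol genes tested, 11 were called higher and 1 lower at E13.5 (median log2 0.70), 15 higher and 0 lower at E16.5 (1.94), and 1 higher and 14 lower at P6w (-3.21), with the same shares of all genes called. Hemgn was at 10.2 and 8.15 CPM at E12.5, 47.5 and 48.1 in the E13.5 pair, 185 and 182 at E16.5, and 0 in both P6w libraries. From E13.5 to E16.5, where no adult chain was called higher in the model of 8 libraries with no offset and no lane term, Hemgn changed by 1.94 on the log2 scale, and Slc4a1, the anion exchanger band 3, went from 45.2 and 46.9 to 110 and 115 CPM. The exceptions were Epb41 at E13.5 (-0.86) and Ank1 at P6w (4.14). With the gene-length offset, 14 of the 18 were called higher and 0 lower at E13.5.

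**Figure D3:**
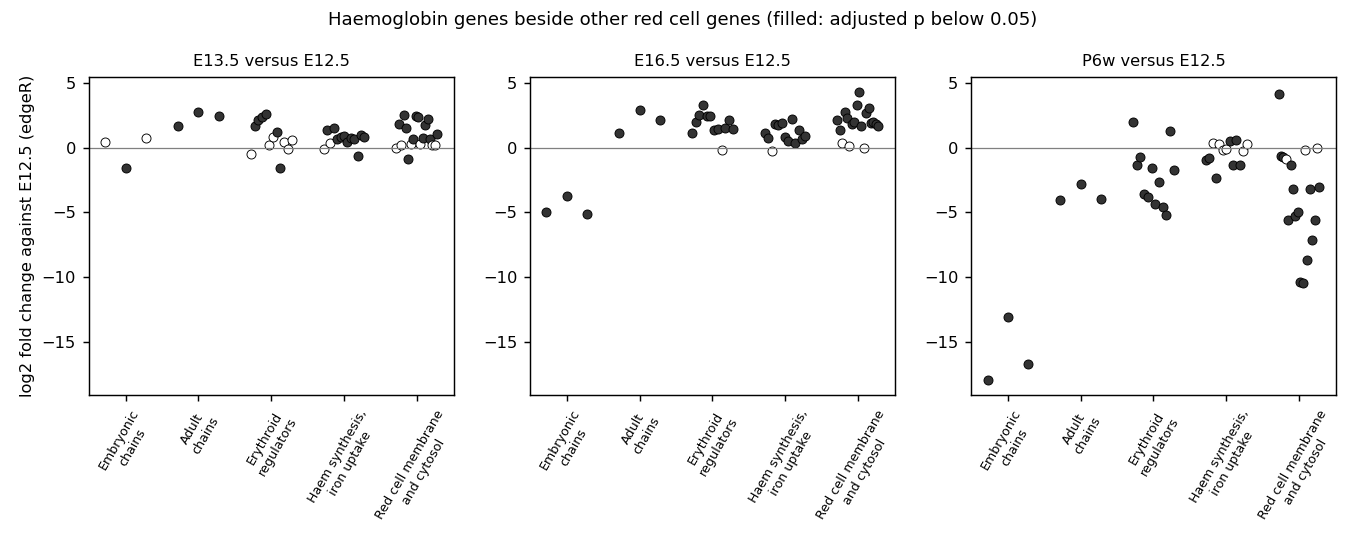
Log2 change against E12.5 of each gene of the red cell lists (regulators, haem synthesis and iron uptake, membrane and cytosol) and of the haemoglobin genes at E13.5, E16.5 and P6w; filled points passed the test. Most red cell genes lie above 0 at E13.5 and E16.5 together with the adult chains, while the embryonic chains lie below 0 at E16.5; at P6w the fitted values of genes without counts, the embryonic chains among them, depend on the prior count.

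Of 6 other globins tested, 3 rose at E13.5 (Hba-a2, Hbq1b and Cygb) and 0 fell, 3 rose at E16.5, and 4 fell at P6w, beside the 45.9%, 37.6% and 52.9% of all genes called. Hba-a2 was at 345 and 423 CPM at E12.5, 1519 and 1715 in the E13.5 libraries, 1414 and 857 at E16.5, and 30.0 and 32.4 at P6w. Hbq1b, a theta globin of the alpha family, was at 8.20 and 9.19, 23.3 and 21.7, 27.4 and 22.5, and 0.24 and 0.50 CPM. Both lay highest at E13.5 or E16.5, as the adult chains did. With the gene-length offset 1 of the 6 rose at E13.5.

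Marker lists of the cells a gonad preparation can hold moved over the stages as follows. Their calls against E12.5 stand beside those of all genes, of which 23.8% (E13.5), 20.5% (E16.5) and 25.4% (P6w) were called higher. The shares of all genes called lower were 22.1%, 17.1% and 27.5% in the same order. The erythroid markers, of which 6 of 7 were counted, summed to 168 to 190 CPM at E12.5, to 578 to 608 at E13.5, 714 to 823 at E16.5 and 28.2 to 30.1 at P6w, and each of the 6 was called higher than at E12.5 at both later embryonic stages and lower at P6w. The gonadal somatic markers went from 2003 to 2032 CPM at E12.5 to 1041 to 1140 at P6w, so that some markers of the labelled cells were present at each stage. Their P6w sum was mainly Amhr2, at 562 to 609 CPM, and Nr5a1, at 295 to 347. Of these 7 markers, 2 were called higher and 4 lower at P6w than at E12.5, and Lhx9 went from 305 to 312 CPM to 3.58 to 3.59. Liver markers lay at 3.70 to 4.17 CPM at E12.5, between 119 and 128 at E13.5, 2.14 to 3.63 at E16.5 and 125 to 138 at P6w, with 5 of 5 called higher at E13.5 (median log2 5.82). The P6w sum was almost wholly Apoa1, at 122 and 133 CPM, while Alb was at 0 there and the median log2 change of the list was -1.09. Endothelial markers were at 209, 99.7 to 101, 116 to 126 and 25.3 to 32.7 CPM in the same order. Mast cell markers were at 0.602 to 0.691, 4.45 to 6.60, 263 to 285 and 2.61 to 2.995 CPM, with 3 of 3 called higher at E16.5, where the adult chains were also high. Macrophage markers were at 53.4 to 59.95, 82.0 to 85.0, 114 to 127 and 200.9 to 201.4 CPM, and germ cell markers at 8.43 to 9.14, 31.98 to 32.5, 66.5 to 69.3 and 6.74 to 7.68. Megakaryocyte markers were at 46.4 to 49.0, 68.98 to 78.2, 33.5 to 40.2 and 16.1 to 18.9 CPM, and extraembryonic endoderm markers at 101 to 117, 157, 86.7 to 117 and 255 to 274. The last P6w sum was mainly Lama1, at 154 to 171 CPM, and Dab2, at 99.9 to 103. Afp was at 0 to 0.163 CPM and Ttr at 0 there, and the median log2 change of that list against E12.5 was -0.34. The part of these lists in the haemoglobin levels was not tested.

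The genes most like the members in pattern were taken from the 8 libraries by Pearson's r of log2 CPM with the mean log2 CPM of the embryonic or of the adult chains, with the members themselves left out. For the embryonic chains these were Ddx23 (r = 0.996), Hpn (0.992), Hmgn5 (0.991), Hoxa9 (0.988) and Mogat2 (0.988) of 16391 genes. For the adult chains they were Phyhd1 (0.999), Gstm6 (0.995), Hbq1b (0.995), Hba-a2 (0.994) and Nenf (0.994). These libraries are 4 pairs, share their stage, lane and depth within each pair, and so hold few independent points.

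In the FPKM table the adult chains were high in E12.5_GC and at or near 0 in the induced cells. Hba-a1 was at 4045, 1559 and 967 FPKM in the 3 E12.5_GC libraries, and Hbb-bs at 326, 115 and 55.3. These libraries spread widely, with the first 4.18 times the third for Hba-a1 and 5.89 times for Hbb-bs, in the same order for both genes. The ratio of Hba-a1 to Hbb-bs was 12.4, 13.501 and 17.5. No depth is known for these values, and FPKM and CPM are not set side by side as levels. Embryonic chains, Hbb-bt and the red cell genes Gata1, Klf1, Slc4a1 and Hemgn were not among the genes with a value.

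Other red cell genes followed the order of Hba-a1 in part. Alas2 was at 63.0, 18.7 and 15.1 FPKM and Car2, the red cell carbonic anhydrase that other cells also make, at 44.1, 10.98 and 11.03. The first E12.5_GC library was the highest for 10 of 11 listed red cell membrane and cytosol genes, 9 of 13 haem genes and 5 of 8 regulators. It was also the highest for 4 of 5 endothelial, 3 of 6 macrophage, 1 of 2 megakaryocyte and 1 of 1 liver markers. For extraembryonic endoderm, gonadal somatic and germ cell markers this held for 2 of 5, 2 of 7 and 0 of 4. The share of all genes highest in that library was not counted, so these counts are a description only. The summed gonadal somatic markers did not follow the order of Hba-a1, at 511, 587 and 549 FPKM.

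In the 12 libraries of V580 days, Hba-a1 was above 0 in 4, with a highest value of 0.111 FPKM, and Hbb-bs in 3, with a highest of 0.0586. The remaining values were listed at 0. In log2(FPKM+1), Hba-a1 differed from E12.5_GC by -10.76 on day 4, -10.79 on day 6 and -10.81 on day 10 (SE 0.329; limma adjusted p = 5.31e-13, 7.91e-13 and 7.06e-13), and on day 8 it was listed at 0 in all 3 libraries. Hbb-bs differed by -6.99 on day 4, -6.98 on day 6 and -6.99 on day 8 (SE 0.396; limma adjusted p = 5.45e-10, 7.91e-10 and 9.05e-10), and on day 10 it was listed at 0 throughout. Both were called lower on each day, where 20.4%, 15.2%, 13% and 16.4% of 11512 genes were called on days 4, 6, 8 and 10, and 11.3%, 8.11%, 6.07% and 7.23% were called lower. Both had passed the filter on low values only through E12.5_GC, and so had to differ. The sizes depend on the number added, and with log2(FPKM+0.1) that of Hba-a1 on day 8 against E12.5_GC, for example, was -14.16.

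**Figure D4:**
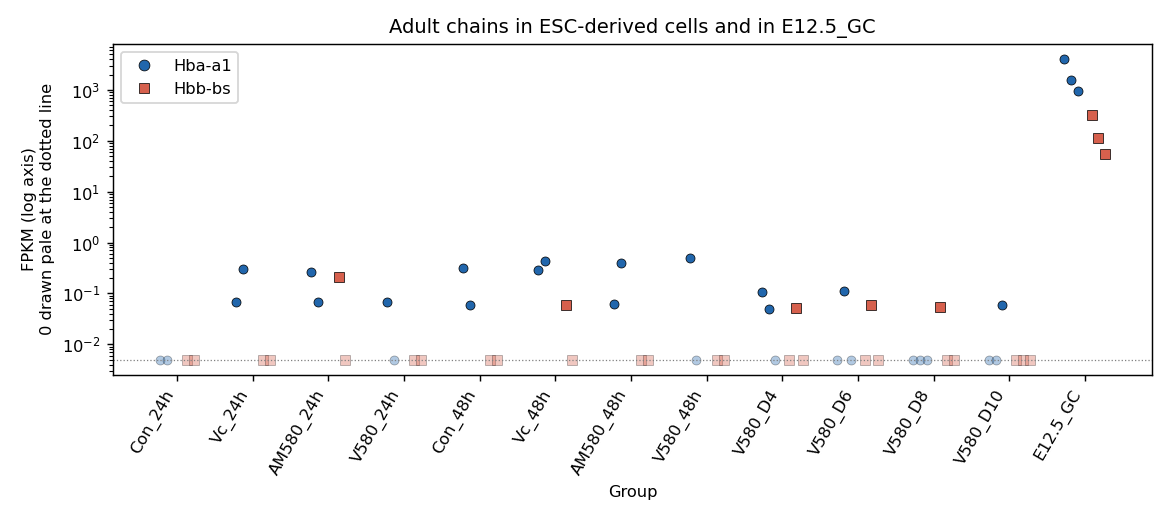
FPKM of Hba-a1 and Hbb-bs in the 31 libraries with FPKM values, on a log axis, each point a library, grouped by treatment, day and E12.5_GC; values of 0 are drawn pale at the dotted line. The E12.5_GC libraries lie at 55.3 FPKM and above, and each library of induced cells below 0.5 FPKM.

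Between successive V580 days neither member was called by limma, with 0 of 2 at an adjusted and 0 of 2 at an unadjusted p below 0.05, where 5.08%, 2.55% and 1.29% of all genes were called. No call was possible there, since Hba-a1 reached at most 0.111 and Hbb-bs at most 0.0586 FPKM on these days. In log2(FPKM+1) such values cannot differ by 2-fold, and the absence of calls is given as a description only. At 24 h and 48 h, Hba-a1 was above 0 in 12 of 16 libraries, with a median of 0.0684 and a highest value of 0.493 FPKM in a V580 48 h library whose pair was listed at 0. Hbb-bs was above 0 in 2 of 16, at 0.206 in an AM580 24 h library and 0.0603 in a Vc 48 h library. Values above 0 thus occurred with and without agents, Con at 48 h included (0.310 and 0.0585 for Hba-a1). No member passed the filter there, where of 10644 genes 0.0846% (Vc), 0.404% (AM580) and 0.695% (V580) were called against Con at 24 h, 0.047%, 3.23% and 3.18% at 48 h, and 7.72% between the Con times. With no filter, limma called 0 in 7 comparisons, and 1 value, Hbb-bs in AM580 against Con at 24 h, had an unadjusted p below 0.05 (0.0481; adjusted 0.207). Calls were not possible here either, since values of at most 0.493 FPKM (Hba-a1) and 0.206 FPKM (Hbb-bs) cannot differ by 2-fold in log2(FPKM+1).

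The red cell lists were also compared between V580 day 6 and E12.5_GC, where many members were too low to test and 15.2% of all genes were called, 8.11% lower. Of 8 red cell membrane and cytosol genes tested, 0 were called higher and 5 lower (median log2 -1.22); of 13 haem genes 1 was called higher (Tfrc, 1.496) and 5 lower (-0.57); and of 7 regulators 0 were higher and 2 lower (-0.11), namely Lmo2 (-3.00) and Nfe2 (-1.44). The median of all genes was 0.03. Alas2 differed by -4.63 and was called lower. Alas2 (at most 0.680 FPKM in the V580 libraries), Nfe2 (0.618) and Ermap (0.127) passed the filter on low values through the E12.5_GC libraries alone and so had to be lower, and these counts are given as a description only.

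The genes most like Hba-a1 and Hbb-bs over the 15 libraries of days and E12.5_GC, by r of log2(FPKM+1) with the mean of both, over 11510 genes, were Cx3cr1 (0.999), Adgre1 (0.999), Rac2 (0.998), Hoxd10 (0.998) and Gimap4 (0.998). All of these r rest on 3 libraries with high values against 12 near 0.

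In the 10x sample of V580 day 6 cells, 15315 of 15412 barcodes had at least 200 genes and at most 40% mitochondrial UMIs (molecule counts), and these cells held 162844907 UMIs with a median of 9281. No doublet caller was run and UMIs per cell had no maximum, so a kept barcode, that of 82440 UMIs among them, can be a doublet. The 6 members had 41 UMIs in 4 of these cells. By gene these were 20 of Hbb-y (exact 95% Poisson interval 12.2 to 30.9), 14 of Hbb-bh1 (7.65 to 23.5), 3 of Hba-a1 (0.619 to 8.77), 2 of Hbb-bs (0.242 to 7.22), and 1 each of Hbb-bt and Hba-x. With 1 sample there is no test, and the intervals cover counting error only.

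A single barcode held 38 of the 41 UMIs, 34 of them of the embryonic beta-like chains Hbb-y and Hbb-bh1 and 4 of adult chains. They were 3.41% of its 1114 UMIs. This barcode had 547 genes and 14.1% mitochondrial UMIs, and 1320 kept cells had fewer UMIs. It held no UMI of the 6 erythroid markers in the table or of the erythroid regulators, 1 of Tfrc, and 1 each of Itga2b and Gp9, which mark megakaryocytes. No cell type can be given to it from so few markers. The other 3 UMIs were single ones, of Hbb-bs in cells of 16136 and 82440 UMIs and of Hba-x in a cell of 21220 UMIs.

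Over all kept cells, Slc4a1 and Rhag, which mark red cells, had 0 UMIs, and a count of 0 of 15315 cells allows a share of up to 0.0196% of cells with a UMI. Alas2 had 7 UMIs in 7 cells, Gata1 4 in 3, Klf1 59 in 58 and Epor 97 in 96, none of them in a cell with a member UMI. A stricter limit of at least 1000 genes and at most 10% mitochondrial UMIs left 10754 cells and 3 member UMIs, since the barcode with 38 did not pass it.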

How the data were processed

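For the 8 stage libraries the authors deposited unnormalized read counts by gene symbol, and the submitters' notes name HISAT2, featureCounts and mm10. The authors deposited FPKM values for 31 libraries without counts, so that their depth is unknown. The 10x sample was deposited as UMI counts from Cell Ranger. Another table, of 10 value columns that matched no sample, was not used here.

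Counts were filtered with filterByExpr, given TMM factors and fitted by quasi-likelihood in edgeR 4.0.16 under R 4.3.3, with all 8 libraries in one model; DESeq2 1.42.0 was an alternative. FPKM values, as log2(FPKM+1), went into limma 3.58.1 with an intensity trend. Genes needed an FPKM of 1 or more in 3 libraries (days, 15 libraries) or in 2 (24 h and 48 h, 16 libraries), and were called at an adjusted p below 0.05 and at least 2-fold. All p values were adjusted over all genes tested. On simulated data with 200 genes changed 4-fold, edgeR recovered 91.5% for P6w against E12.5 (10 false calls among 15889 genes) and limma 98% for V580 day 6 against E12.5_GC (0 among 11072). Each simulation gave all genes and groups the same spread (a dispersion of 0.0172 for the counts). The real spread differed between stages and was highest at E16.5, so these figures do not show how the tests behave on the real libraries. The 10x cells had no test.

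The members, the lists and the named genes (all members, the genes that went against their list, up to 5 examples a list and the 5 genes most alike in pattern) were chosen with earlier results of these data known. Alternatives covered normalization, filters, a gene-length offset (a lowess of log counts on log exon length in each library), a lane term, a replicate term and leaving out libraries. Positions, coding bases and lengths came from GENCODE vM21 on GRCm38, the assembly that mm10 names.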

Additional observations from a re-analysis of the deposited data

How the results depend on the processing

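Of 133 counts of called haemoglobin genes under all alternatives, 133 were within 1.5 times the main count, a band that takes 4 and 6 called as alike. Many of these counts could hardly change. Both members in the FPKM values had to be called against E12.5_GC and lay at or near 0 in all induced cells. The 133 are therefore not a measure of stability. Leaving out 1 library of the groups compared gave 4 called members for E13.5 against E12.5 (6 without the first E16.5 library, chosen after seeing the data), 6 for E16.5 and for P6w against E12.5, 3 to 5 for E16.5 against E13.5, 2 for each V580 day against E12.5_GC and 0 between successive days. Directions turned with the gene-length offset for Hbb-y (-0.22) and Hba-x (-0.42) at E13.5 against E12.5 and for Hba-a1 (0.29) and Hbb-bt (0.51) at E16.5 against E13.5; with the replicate block added to the offset these were -0.23, -0.40, 0.26 and 0.52. For Hbb-bs at E16.5 against E13.5, leaving out 1 library gave -0.33 to 0.43. The rise of Hbb-y and Hba-x at E13.5 was also called with no filter (0.73 and 0.41) and with a lane term (0.75 and 0.43). That lane term was set by the 2 E16.5 libraries alone, since each other stage lay on 1 lane. It could not adjust E13.5 against E12.5 and took up the spread between the E16.5 libraries, much as leaving 1 out does. The mean embryonic share was 80.1% at E12.5 and 59.5% at E13.5, against 82.3% and 62.9% per kilobase and 78.0% and 56.6% with Hba-a2. The member UMIs fell to 3 under the stricter limits on cells. The cause of these shifts was not tested.

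Pairing by replicate number was looked for in deviations from the group mean. The correlation of same-numbered stage libraries was -0.04 to 0.07 (0 of 12 pairs over 0.1), that of days -0.43 to 0.39 (9 of 30) and that of treatments -0.42 to 0.21 (14 of 56). With 2 libraries a group the deviations mirror each other, so each stage and treatment value is counted 2 times. No pairing was seen for the stages, and for days and treatments it remained unclear. The fit with a replicate block called 4, 6, 6, 4 and 6 members in the 5 comparisons of stages and 2 for each V580 day against E12.5_GC, and changed no call of a member. The calls for the V580 days were fixed by the filter on low values. Leaving out an E12.5_GC library gave no value, since both members then failed the filter, and a fit of 2 successive days only was not possible for the same reason. For 24 h and 48 h only the alternative with no filter gave values. With 2 libraries a stage, near-identical adult copies, unknown depth of the FPKM values and 1 single-cell sample, the data limit how finely the chains can be told apart.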

Other observations

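Genes that bind free haemoglobin or haem were described as a list of 5. Against E12.5, 2 were called higher and 1 lower at E13.5, 2 higher at E16.5 and 2 higher at P6w by edgeR, where 45.9%, 37.6% and 52.9% of all genes were called. Hp (haptoglobin), which binds haemoglobin set free from red cells, was at 2.41 and 2.42 CPM at E12.5, 4.88 and 5.93 in the E13.5 pair, 12.2 and 13.7 at E16.5, and 2.20 and 2.41 at P6w, a log2 change of 1.16 at E13.5 and 2.42 at E16.5 (both called). Hpx (hemopexin), which binds haem, was at 0.32 and 0.64, 4.16 and 4.05, 0.61 and 0.37, and 0.90 and 0.17 CPM, and so was high at E13.5 alone among these libraries, as the liver markers were among the embryonic stages. Hmox1, which breaks haem down, was at 119 and 129, 152 and 179, 187 and 313, and 131 and 123 CPM, and was called higher at E16.5 (1.01). Lrp1, a receptor that takes up hemopexin with haem, was lower at E13.5 (-0.78) and higher at P6w (0.84). Cd163, the haemoglobin receptor of macrophages, had no count at E12.5 and E13.5 and was at 0.73 and 1.16 CPM at P6w. The cells behind these values were not tested.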
